A study of Mus musculus with 12 samples.

Results

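Bone morphogenetic proteins (BMPs) and the proteins that hold them back were followed here as 9 genes: the ligand genes Bmp2, Bmp4, Bmp5, Bmp6 and Bmp7, the divergent family member Bmp3, the secreted ligand traps Nog (noggin) and Chrd (chordin), and Bambi, which encodes a decoy receptor in the membrane. They were taken by symbol from 52636 genes in each of 2 deposited tables of read counts, and all 9 were found. RNA of the dentate gyrus, the granule cell field of the hippocampus, had been sequenced from C57BL/6 mice in 12 libraries of 4 groups, 3 libraries each. KO libraries, named M1, F1 and M2, came from mice without a working Fst gene, and WT libraries of the same names from wild-type mice. In the other table, Fst vector libraries (M1, M2, F) were labelled as overexpressing with the viral vector AAV9-CB::Fst, and GFP vector libraries (M1, M2, F) as KO with AAV9-CB::GFP. The sources used here do not give the genotype behind the Fst vector, the cells that the vectors reach, or the age of the mice. For F1 and M2 of both KO and WT, the sex in the title differs from that in the description, and names follow the titles. The design text does not settle whether a library is 1 mouse or a pool, so a p-value here speaks only of library-to-library spread, which may be technical.

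BMPs are secreted dimers that bring together type I and type II serine/threonine kinase receptors, which phosphorylate SMAD1, SMAD5 and SMAD9; these enter the nucleus with SMAD4 and switch on genes such as the Id family. Noggin and chordin bind ligands outside the cell, tolloid proteases cleave chordin and free them, and follistatin, the product of Fst, binds activins and, less tightly, several BMPs. In the dentate gyrus BMP signalling is known for keeping neural stem cells quiescent, and noggin for opposing it.

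Promoters are printed for the most abundant of the 9 genes, Chrd, the most abundant ligand gene, Bmp6, and the scarcest, Bmp5, because these set the ends of the range of levels described next. Each runs from 250 bases before to 50 bases after the RefSeq transcript start in GRCm38.p6, 5′ to 3′ on the strand of the gene (+ in all 3), and capitals mark motifs that SMAD proteins are known to bind, GGCGCC and CAGAC, and GTCTG, the reverse complement of CAGAC.
Chrd, chr16:20732877-20733176: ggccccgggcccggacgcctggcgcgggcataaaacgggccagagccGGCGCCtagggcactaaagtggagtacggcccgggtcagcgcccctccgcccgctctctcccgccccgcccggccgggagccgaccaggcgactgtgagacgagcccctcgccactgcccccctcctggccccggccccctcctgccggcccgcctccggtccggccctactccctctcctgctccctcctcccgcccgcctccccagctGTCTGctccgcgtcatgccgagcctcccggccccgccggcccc
Bmp6, chr13:38345466-38345765: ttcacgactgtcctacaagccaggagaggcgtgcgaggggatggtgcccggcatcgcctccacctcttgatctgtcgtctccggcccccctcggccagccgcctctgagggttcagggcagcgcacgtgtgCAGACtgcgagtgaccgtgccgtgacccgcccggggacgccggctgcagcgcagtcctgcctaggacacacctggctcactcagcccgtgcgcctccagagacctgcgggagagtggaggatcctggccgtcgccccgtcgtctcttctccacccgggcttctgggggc
Bmp5, chr9:75775115-75775414: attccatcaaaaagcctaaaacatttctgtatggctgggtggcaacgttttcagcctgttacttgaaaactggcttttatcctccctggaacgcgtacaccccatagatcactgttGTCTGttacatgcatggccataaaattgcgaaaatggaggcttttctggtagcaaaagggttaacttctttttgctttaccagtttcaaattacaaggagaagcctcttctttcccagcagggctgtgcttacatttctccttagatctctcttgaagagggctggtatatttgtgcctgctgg
The Chrd promoter held 34 CpG dinucleotides, and 7.7% of 32851 RefSeq promoters of this length held at least as many (median 7). The Bmp6 promoter held 27 (15.5% with at least as many) and the Bmp5 promoter 4 (68.6%). Chrd had 1 GGCGCC, which 11.9% of all promoters hold on either strand, and 1 match to CAGAC on either strand. Bmp6 and Bmp5 had 1 match to CAGAC each and none to GGCGCC, and CAGAC lies on either strand in 49.6% of all promoters. No 2 matches in these promoters overlap, and a match describes the sequence only. The RefSeq start of Bmp6 used for this window lies downstream of the GENCODE gene start given with its values, so the window lies inside the gene as GENCODE has it.

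Library depth ran from 8081824 to 11331337 counts, with 20915 to 22235 genes detected, and a count of 3 equals 0.265 to 0.371 CPM (counts scaled to library totals). Fst itself, the targeted gene, had 0.215, 0.428 and 0.203 CPM in KO M1, F1 and M2, against 3.57, 3.54 and 4.5 CPM in WT. It had 204, 189 and 166 CPM in Fst vector M1, M2 and F, against 0, 0.0974 and 0 CPM in the GFP vector group. Markers of mature granule cells, which define the dentate gyrus, were present: 6 genes (among them Prox1, Calb1 and Dsp) summed to 1213 to 1803 CPM per library with none at 0. Some vector libraries stood apart: the astrocyte gene Gfap had 613, 620 and 1033 CPM in Fst vector M1, M2 and F, against 566, 1555 and 4864 CPM in GFP vector M1, M2 and F, whereas KO and WT libraries held 370 to 464 CPM. Ribosomal RNA took 0.575 to 0.679% of counts in KO M2, WT F1, Fst vector M2, Fst vector F and GFP vector M2, and 0.0092 to 0.0211% in the other 7 libraries.

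The antagonists were the abundant members. In CPM per kilobase of exon, the scale on which genes are compared here, Chrd led at 21.03 ± 3.81 (SD over 12 libraries), followed by Nog at 4.35 ± 1.07, Bambi at 3.34 ± 0.544 and the first ligand, Bmp6, at 1.69 ± 0.538. Bmp7 followed at 0.866 ± 0.242 and Bmp4 at 0.608 ± 0.344. Bmp3 had 0.237 ± 0.105, Bmp2 0.129 ± 0.0847 and Bmp5 0.0741 ± 0.0601. Only the step between Chrd (12.8 to 26.8 CPM per kilobase) and Nog (2.03 to 5.88) was free of overlap between the ranges of neighbours in this order. Within libraries the order was steadier: Bambi exceeded Bmp6, and Bmp6 exceeded Bmp7, in all 12 libraries, Bmp4 exceeded Bmp3 in 11, Nog exceeded Bambi and Bmp7 exceeded Bmp4 in 10, and the steps from Bmp3 to Bmp2 and from Bmp2 to Bmp5 held in 9. Bmp2, with 54 counts in all libraries together, and Bmp5, with 35, were near the floor of 3 counts per library.

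**Figure D1:**
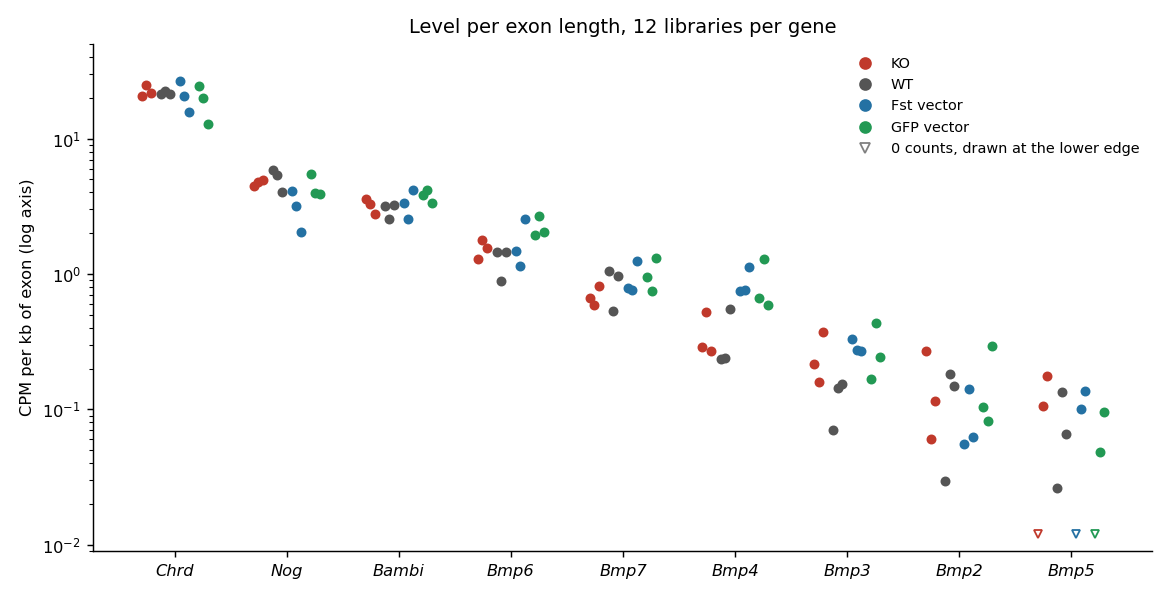
Level of each of the 9 genes in CPM per kilobase of exon on a log axis, 1 point per library, coloured by group, with genes in order of the mean over 12 libraries and values of 0 drawn as open triangles at the lower edge. Chrd lies between 12.8 and 26.8 CPM per kilobase in every library, above every value of every other member, and Bmp5 lies lowest.

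The make-up of the 9 genes' counts was led by Chrd in every group. Chrd supplied 79.1 ± 1.49% of the counts of the 9 genes in KO and 79.7 ± 2.21% in WT (SD, n = 3 each). It supplied 77.1 ± 7.31% in the Fst vector group and 72.0 ± 6.05% in the GFP vector group, with the lowest shares in Fst vector F (68.7%) and GFP vector F (65.9%). Among the 5 ligand genes apart from Bmp3, Bmp6 held 57.2 ± 4.63% of the counts in KO and 49.8 ± 3.31% in WT, and 50.7 ± 5.84% in the Fst vector group and 56.2 ± 6.12% in the GFP vector group. Nog and Chrd together outweighed those 5 ligand genes, in CPM per kilobase, 9.58 ± 0.494 times in KO and 10.6 ± 3.19 times in WT. The ratio was 7.24 ± 3.40 in the Fst vector group and 5.65 ± 2.26 in the GFP vector group. Both F libraries had the lowest ratios of all 12, 3.46 in Fst vector F and 3.86 in GFP vector F, and the groups of each pair overlapped. These are RNA levels and say nothing of the proteins' amounts.

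KO was set against WT to ask whether loss of Fst is accompanied by a change in these genes, and none passed the test. Of the 9 genes, 6 had enough counts to be tested, and 0 were called by edgeR's quasi-likelihood test at an adjusted p of 0.05; at an unadjusted p under 0.05 there was 1, Bmp3, and DESeq2 likewise called 0. Over all 14919 genes tested, 0.0268% were called and 5.96% had an unadjusted p under 0.05. The median log2 change of the 6 was 0.09, with 4 positive and 2 negative, against -0.00 over all genes tested.

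Bmp2 (chromosome 2, 133552159 to 133562885, plus strand) and Bmp4 (chromosome 14, 46383520 to 46390669, minus strand) are closely related ligands that prefer the type I receptors encoded by Bmpr1a and Bmpr1b. Bmp4 had 0.644, 1.18 and 0.610 CPM in KO M1, F1 and M2, against 0.525, 0.536 and 1.24 CPM in WT M1, F1 and M2. The groups overlapped, each with 1 library near 1.2 CPM. Bmp2 had 0.967, 0.214 and 0.406 CPM in KO, against 0.105, 0.644 and 0.529 CPM in WT, again overlapping. Neither had enough counts for the test; as a ratio of summed counts scaled by depth, with an exact 95% interval that covers counting error only, KO over WT was 1.02 (0.548 to 1.88) for Bmp4, from 23 and 24 counts, and 1.22 (0.543 to 2.79) for Bmp2, from 15 and 13 counts. A difference smaller than these intervals was not detectable at this depth.

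Bmp5 (chromosome 9, 75775364 to 75900310, plus strand), Bmp6 (chromosome 13, 38345107 to 38500302, plus strand) and Bmp7 (chromosome 2, 172868012 to 172940321, minus strand) form the other classical ligand subgroup, which also uses the receptor encoded by Acvr1. Bmp6, which in the liver is known for its part in iron balance, had 5.05, 6.96 and 6.09 CPM in KO M1, F1 and M2, against 5.67, 3.43 and 5.65 CPM in WT M1, F1 and M2. WT F1 was lowest and the groups overlapped; the log2 change was 0.30 ± 0.22 (SE; 95% interval -0.14 to 0.75; adjusted p = 0.934, edgeR), and 0.12 ± 0.22 without WT F1 (adjusted p = 0.960). Bmp7 had 2.69, 2.36 and 3.25 CPM in KO, against 4.20, 2.15 and 3.88 CPM in WT, where 2 of the 3 libraries lay above every KO library and WT F1 lay below all of them. Its log2 change was -0.29 ± 0.28 (-0.87 to 0.29; adjusted p = 0.951, edgeR), with -0.51 without WT F1 and -0.12 without WT M1. Bmp5 had 0, 4 and 7 counts in KO M1, F1 and M2, against 1, 5 and 3 counts in WT M1, F1 and M2, so its ratio of 1.30 (0.488 to 3.54) spans both directions.

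Bmp3 (chromosome 5, 98854415 to 98884396, plus strand) encodes a family member that is known to oppose the other BMPs. It had 1.61, 1.18 and 2.74 CPM in KO M1, F1 and M2, against 0.525, 1.07 and 1.15 CPM in WT M1, F1 and M2. It was the only one of the 9 genes whose groups did not overlap, though the gap between KO F1 and WT M2 rests on 11 and 13 counts. Among all genes tested, 11% had no overlap in either direction, and 3.98% were higher in KO without overlap. Beside the 11%, 1 of 9 is not a result about these genes. The log2 change was 1.01 ± 0.42 (0.16 to 1.87; adjusted p = 0.761, edgeR). Without KO M2, the highest library and the KO library with the higher share of ribosomal RNA, the log2 change was 0.61 ± 0.49 (adjusted p = 0.876).

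Nog (chromosome 11, 89300638 to 89302332, minus strand) had 7.63, 8.14 and 8.33 CPM in KO M1, F1 and M2, against 9.97, 9.12 and 6.88 CPM in WT M1, F1 and M2. The WT values spanned those of KO, and the log2 change was -0.08 ± 0.17 (-0.43 to 0.27; adjusted p = 0.981, edgeR). Chrd (chromosome 16, 20733127 to 20742384, plus strand), measured on 840 to 1705 counts per library, had 129, 156 and 135 CPM in KO, against 133, 141 and 134 CPM in WT. Its log2 change was 0.06 ± 0.07, and the interval of -0.07 to 0.20 (adjusted p = 0.953, edgeR) is the narrowest of the 6 tested genes. Bambi (chromosome 18, 3507923 to 3516404, plus strand) had 18.3, 16.8 and 14.1 CPM in KO, against 16.1, 13.0 and 16.5 CPM in WT, with a log2 change of 0.12 ± 0.13 (-0.14 to 0.39; adjusted p = 0.953, edgeR).

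**Figure D2:**
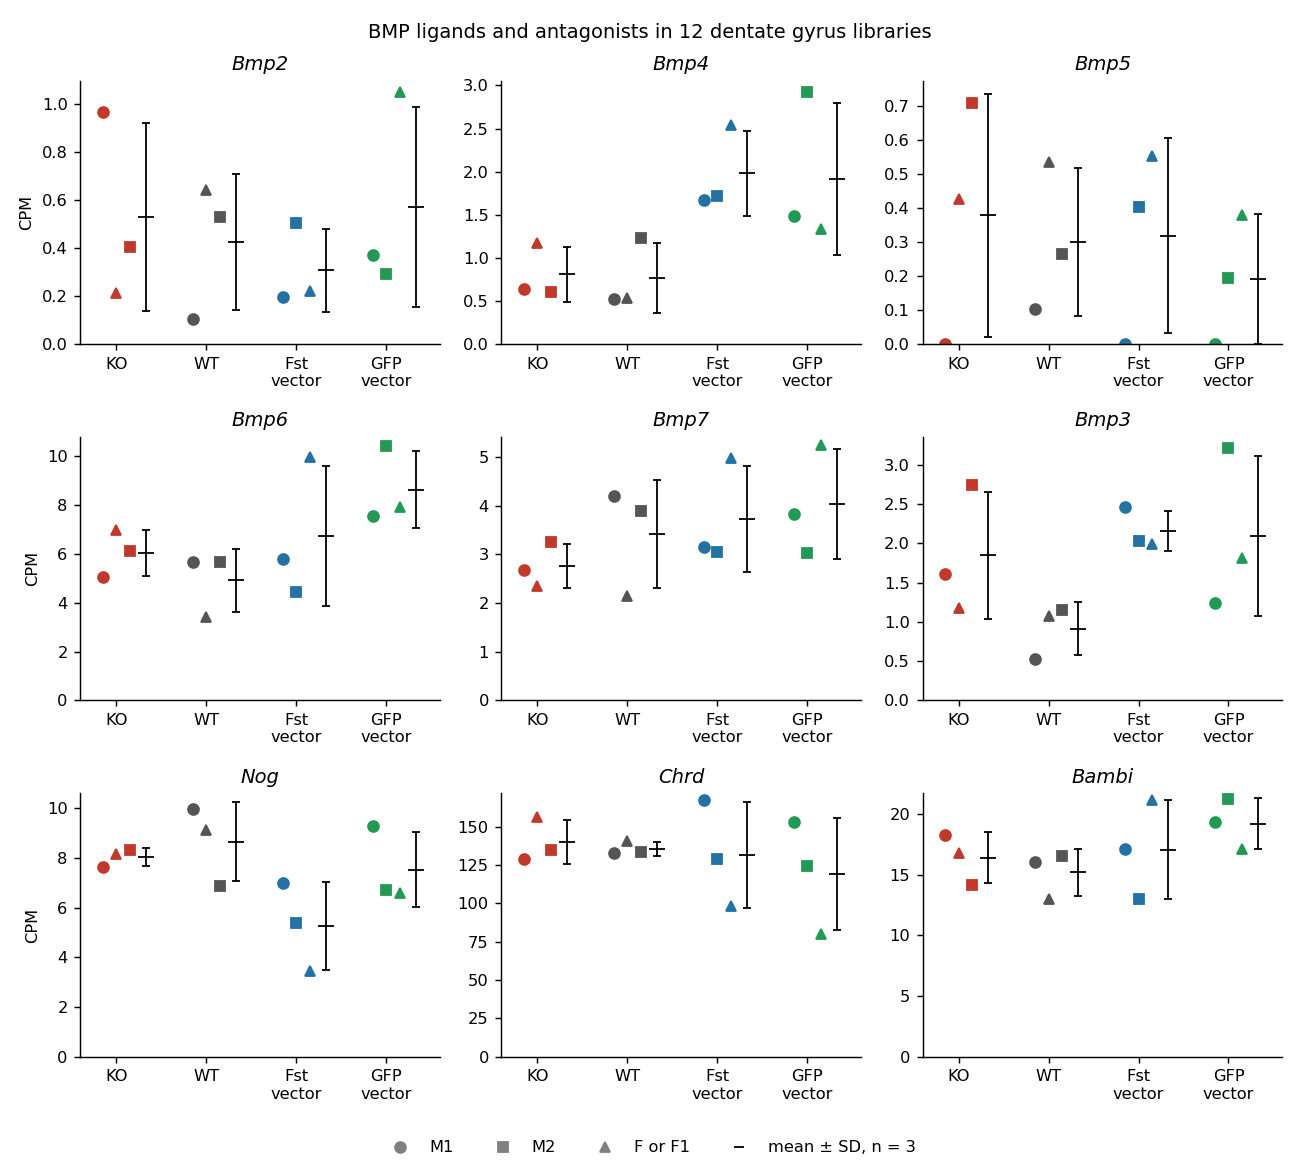
CPM of each of the 9 genes in every library, 1 panel per gene with its own axis from 0; points are libraries, and bars the group mean with its SD (n = 3). Bmp3 separates KO (1.18 to 2.74 CPM) from WT (0.525 to 1.15 CPM), as 11% of all genes tested do in either direction. Bmp4 lies at 1.34 to 2.92 CPM in the vector groups, against 0.525 to 1.24 CPM in KO and WT.

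The Fst vector was set against the GFP vector to ask what accompanies a high level of Fst, and again none of the 9 genes passed. The test took in 7 of them, Bmp4 now included; edgeR called 0 and DESeq2 0, and 0 had an unadjusted p under 0.05. Over all 15034 genes tested, 0.0798% were called and 9.51% had an unadjusted p under 0.05. None of the 9 genes had groups without overlap, against 16.5% of all genes tested. The median log2 change of the 7 was -0.16, with 3 positive and 4 negative, against 0.01 over all genes tested.

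Among the ligands, Bmp4 had 1.67, 1.72 and 2.55 CPM in Fst vector M1, M2 and F, against 1.49, 2.92 and 1.34 CPM in GFP vector M1, M2 and F. GFP vector M2 was the highest of the 6, and the log2 change was 0.00 ± 0.41 (-0.92 to 0.92; adjusted p = 1, edgeR), an interval that leaves room for close to a doubling either way. Bmp6 had 5.79, 4.46 and 9.96 CPM in the Fst vector group, against 7.55, 10.4 and 7.92 CPM in the GFP vector group. Fst vector M1 and M2 lay below all GFP vector libraries and Fst vector F above 2 of them; the log2 change was -0.40 ± 0.31 (-1.10 to 0.31; adjusted p = 0.750, edgeR), and -0.78 ± 0.29 without Fst vector F (adjusted p = 0.504). Bmp7 had 3.14, 3.04 and 4.98 CPM in the Fst vector group, against 3.84, 3.02 and 5.25 CPM in the GFP vector group, with the F library highest in both and a log2 change of -0.16 ± 0.33 (adjusted p = 0.915, edgeR).

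The scarce ligands gave wide limits. Bmp2 had 2, 5 and 2 counts in Fst vector M1, M2 and F, against 3, 3 and 11 counts in GFP vector M1, M2 and F, a depth-scaled ratio of 0.525 (0.206 to 1.24). Bmp5 had 0, 4 and 5 counts in Fst vector M1, M2 and F, against 0, 2 and 4 counts in GFP vector M1, M2 and F, a ratio of 1.49 (0.473 to 5.08). Bmp3 had 2.46, 2.02 and 1.99 CPM in the Fst vector group, against 1.24, 3.21 and 1.81 CPM in the GFP vector group, whose values spanned those of the Fst vector group, with a log2 change of 0.00 ± 0.40 (adjusted p = 0.9999, edgeR).

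Among the antagonists, Nog had 6.97, 5.37 and 3.43 CPM in Fst vector M1, M2 and F, against 9.28, 6.72 and 6.58 CPM in GFP vector M1, M2 and F. In each same-named pair the Fst vector library was the lower, while the groups overlapped through Fst vector M1. The log2 change was -0.54 ± 0.30 (-1.23 to 0.14; adjusted p = 0.645, edgeR), and -0.58 with the replicate name as a block (adjusted p = 0.322, edgeR). Chrd had 167, 129 and 98.4 CPM in the Fst vector group, against 153, 124 and 80.1 CPM in the GFP vector group, a log2 change of 0.11 ± 0.27 (-0.52 to 0.74; adjusted p = 0.932, edgeR) that was -0.11 ± 0.22 without GFP vector F. In each same-named pair the Fst vector library was the higher, and with the replicate name as a block the log2 change was 0.12 ± 0.10 (adjusted p = 0.647, edgeR). Within each vector group M1 was highest and F lowest. Bambi had 17.1, 13.0 and 21.1 CPM in the Fst vector group, against 19.3, 21.2 and 17.1 CPM in the GFP vector group (log2 change -0.21 ± 0.20; adjusted p = 0.798, edgeR).

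**Figure D3:**
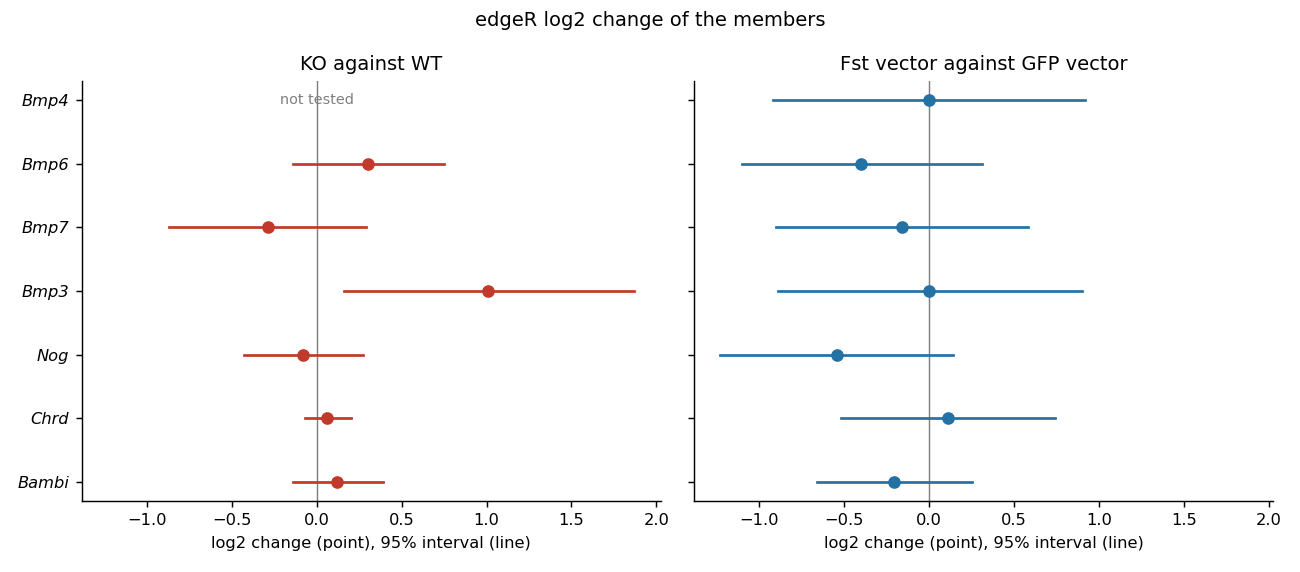
Log2 change with its 95% interval for each tested gene in both comparisons, KO over WT (left) and Fst vector over GFP vector (right); a positive value means higher in the group named first. All intervals but that of Bmp3 in KO over WT (0.16 to 1.87) include 0.

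Whether a gene moved differently in the 2 comparisons was tested in 1 fit of the 12 libraries, as the change under the Fst vector minus the change in KO. Of the 7 tested genes, 0 were called by edgeR and 0 had an unadjusted p under 0.05, against 0.281% called and 9.95% with an unadjusted p under 0.05 over 15632 genes. The widest gaps belonged to Bmp3, at -1.02 ± 0.60 (adjusted p = 0.615, edgeR), and Bmp6, at -0.72 ± 0.40 (adjusted p = 0.597). With 1 library left out, Bmp3 ran from -1.26 to -0.58, Bmp6 from -1.10 to -0.49 and Nog from -0.73 to -0.23. Without GFP vector M2 the 3 were at -0.58, -0.57 and -0.54, in the same order but close together, so their spacing rests on that library. With all libraries, the gaps of Nog (-0.46), Bambi (-0.34), Bmp7 (0.12), Bmp4 (-0.07) and Chrd (0.04) were smaller.

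Of the 9 genes, only Bmp4 was higher in every vector library than in all KO and WT libraries, and many genes outside the 9 were too. All 6 vector libraries, at 1.34 to 2.92 CPM (median 1.70), lay above all 6 KO and WT libraries, at 0.525 to 1.24 CPM (median 0.627), as 7.01% of 15632 genes did. The vector, the deposited table and whatever else separated these libraries cannot be told apart, so no test was made. Beside the share over all genes, 1 of 9 is not a result about Bmp4 or these genes. Bmp6 was above the KO and WT range (3.43 to 6.96 CPM) in 4 of 6 vector libraries, Bambi in 3 and Bmp7 in 2. On the other side, Chrd and Nog each lay below the KO and WT range in 4 of 6 vector libraries and Bambi in 1. For 4.25% of all genes all 6 did, a stricter condition than any member met on this side. No share over all genes was computed for fewer than 6 libraries on either side, so these counts are not read as a result. For Chrd, Fst vector M2 missed that range only by 129.01 against 129.21 CPM, and Fst vector M1, at 167 CPM, lay above its top of 156 CPM.

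By Pearson's r of log2(CPM + 0.5) over the 12 libraries after removal of group means, the genes of highest likeness to Bmp4 among 14994 compared were Mbp (r = 0.92) and Mobp (r = 0.90), which encode myelin proteins, and 1700034H15Rik (r = 0.89). For Bmp6 they were Traf5 (0.97), Cnp, another myelin gene (0.95), and Rmdn2 (0.95). These are descriptions over 12 points that can share depth and dissection, picked as the highest of many, and the Bmp4 values rest on 5 to 30 counts per library. Mbp had 578 to 901 CPM in the vector libraries, against 475 to 533 CPM in KO and WT. Mobp had 116 to 190 CPM in the vector libraries, against 87.6 to 104 CPM in KO and WT, and Cnp had 77.7 to 129 CPM in the vector libraries, against 56.1 to 66.0 CPM in KO and WT. All 3 were above all KO and WT libraries in 6 of 6 vector libraries, as Bmp4 was. The 3 were also higher in Fst vector than in GFP vector libraries without overlap, as 10.5% of all genes tested were, whereas Bmp4 overlapped. Mbp had 789 to 901 against 578 to 670 CPM, and Mobp 156 to 190 against 116 to 139 CPM. Cnp had 103.5 to 129 against 77.7 to 90.6 CPM. Bmp4 had 1.67 to 2.55 CPM in the Fst vector group, against 1.34 to 2.92 CPM in the GFP vector group. With group means removed, r does not show this.

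Mog, a marker of mature oligodendrocytes, had 11.5, 10.9 and 15.4 CPM in Fst vector M1, M2 and F, against 10.2, 11.2 and 11.3 CPM in GFP vector M1, M2 and F. It had 8.27, 8.67 and 9.24 CPM in KO M1, F1 and M2, against 7.45, 8.37 and 7.68 CPM in WT M1, F1 and M2, so all 6 vector libraries lay above KO and WT here too. Markers of oligodendrocyte precursors (5 genes, none at 0) summed to 87.5 to 111 CPM in the Fst vector group and 81.4 to 96.3 CPM in the GFP vector group, and to 82.9 to 90.3 CPM in KO and 89.1 to 96.9 CPM in WT. The part of oligodendrocytes in the Bmp4 values was not tested. In bulk RNA, more cells of a type and more RNA per cell cannot be told apart.

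**Figure D4:**
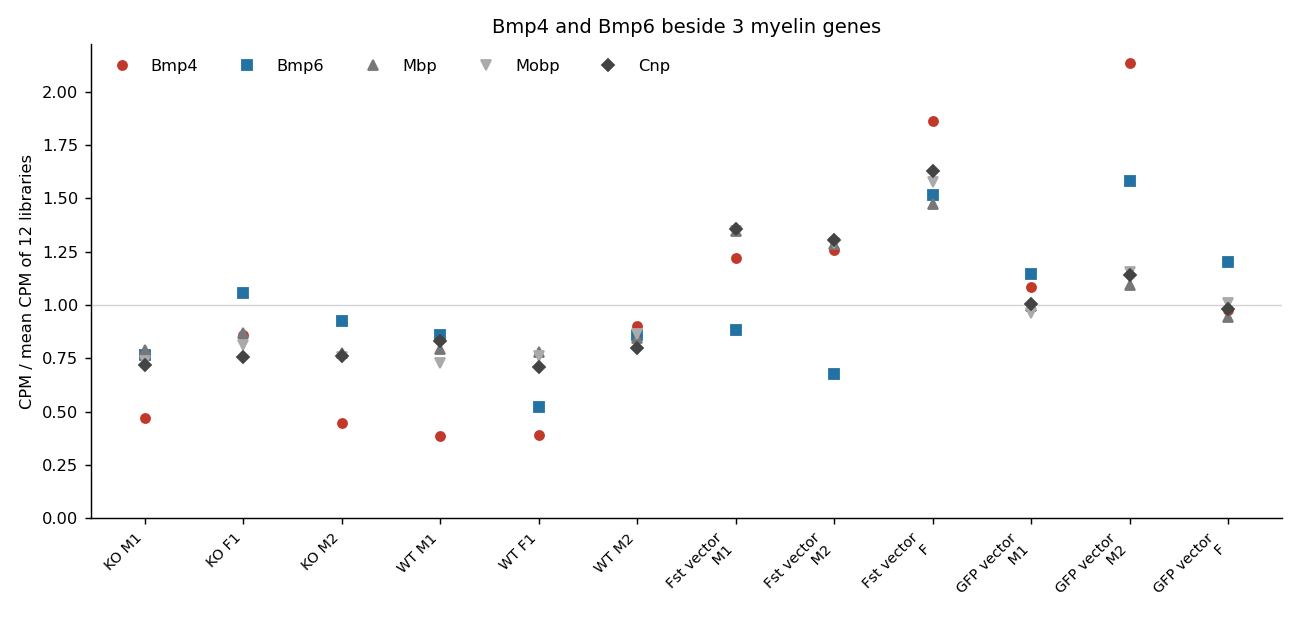
Bmp4, Bmp6, Mbp, Mobp and Cnp in each of the 12 libraries, as CPM divided by the gene's mean CPM over the 12 libraries (vertical axis, from 0). Bmp4 and the myelin genes Mbp, Mobp and Cnp lie higher in all 6 vector libraries than in the 6 KO and WT libraries, while Bmp6 overlaps. Mbp, Mobp and Cnp also lie higher in Fst vector than in GFP vector libraries without overlap, and Bmp4 does not.

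Chrd was lowest in the F library of both vector groups, as were the granule cell markers Calb1, Dsp, Tdo2 and Plk5, named after their values were seen. Among the members Nog was lowest there too, at 3.43 CPM in Fst vector F and 6.58 CPM in GFP vector F. GFP vector M2 was close to the latter, at 6.72 CPM. Prox1 and C1ql2, the rest of the 6 markers, were not lowest in F in both groups. Calb1, the calcium buffer of mature granule cells, had 212, 201 and 93.9 CPM in Fst vector M1, M2 and F, against 234, 135 and 67.8 CPM in GFP vector M1, M2 and F. Tdo2, another granule cell marker, had 2.88 CPM in Fst vector F and 1.05 CPM in GFP vector F, the lowest of all 12 libraries. The whole list of 6 granule markers did not follow Chrd throughout: it summed to 1641, 1356 and 1356 CPM in Fst vector M1, M2 and F, the same in M2 and F, against 1803, 1559 and 1213 CPM in GFP vector M1, M2 and F. Astrocyte markers (5 genes, none at 0) summed to 1979 CPM in Fst vector F and 5890 CPM in GFP vector F, the highest of their groups, and markers of meningeal and perivascular fibroblasts (8 genes, none at 0) to 49.0 and 68.7 CPM, also the highest. The part of these in the Chrd values was not tested. Sex by label and these markers cannot be told apart within the vector groups, which have 1 F library each.

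For the other members with a mean of at least 1 CPM the genes of highest likeness were mixed. For Chrd they were Panx2 (r = 0.99), which encodes a pannexin channel, Poc1a (0.99) and Tbc1d17 (0.98). For Nog they were Gm37768 (0.96), Zfp830 (0.94) and Snrpa (0.93), and for Bambi Gtf2b (0.98), Gm16211 (0.92) and Kdm4a (0.90). For Bmp7 they were Cdca4 (0.93), Siglech, a microglial gene (0.91), and Zfp719 (0.90), and for Bmp3 they included Nfatc2ip (0.90) and Gm12840 (0.88). Between members the same measure was highest for Bmp6 with Bambi (0.77), Nog with Chrd (0.74) and Bmp4 with Bmp6 (0.67), and lowest for Bmp7 with Chrd (-0.62).

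Beyond the 9 genes, 49 other genes of the pathway were grouped in 7 roles, and 37 could be tested in each comparison. In KO against WT, 0 were called; 0 had a higher and 3 a lower value at an unadjusted p under 0.05, a threshold that 5.96% of all genes tested met. In the Fst vector against the GFP vector, 0 were called, with 3 higher and 6 lower at an unadjusted p under 0.05, against 9.51% of all genes tested. DESeq2 called 1 of the named ones, Smad7, among its 239 calls in the vector comparison.

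The Id genes, which BMP signalling induces and which encode inhibitors of bHLH transcription factors, had opposite signs in the 2 comparisons without passing the test in either. All 4 were negative in KO over WT (median log2 change -0.20) and all 4 positive in Fst vector over GFP vector (median 0.37), against medians of 0.01 for the vector and -0.00 for KO over all genes tested; these signs also held with library totals and with DESeq2's scaling. Id3 in KO over WT was at -0.01 and so near 0. Id4 had 83.6, 79.7 and 80.5 CPM in KO M1, F1 and M2, against 94.99, 88.3 and 103 CPM in WT M1, F1 and M2, without overlap (log2 change -0.22 ± 0.07; adjusted p = 0.522, edgeR). It had 158, 153 and 130 CPM in Fst vector M1, M2 and F, against 114, 113 and 73.2 CPM in GFP vector M1, M2 and F, again without overlap (0.52 ± 0.18; adjusted p = 0.421, edgeR). The difference between these effects was 0.73 ± 0.20 and did not pass either (adjusted p = 0.173, edgeR). In KO, 7.04% of all genes were lower than in WT without overlap, and 10.5% were higher in the Fst vector than in the GFP vector group without overlap.

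Among the intracellular transducers, Smad7, an inhibitory SMAD that shuts off receptor signalling, had 11.6, 8 and 8.97 CPM in Fst vector M1, M2 and F, against 17.4, 14.8 and 22.3 CPM in GFP vector M1, M2 and F. The groups did not overlap, which 6.01% of all genes matched in this direction. The log2 change of -0.97 ± 0.22 did not pass with edgeR (adjusted p = 0.211) and passed with DESeq2 (adjusted p = 0.0251). In KO it had 22.3, 23.1 and 14.5 CPM, against 19.5, 16.6 and 19.9 CPM in WT (log2 change 0.11 ± 0.14; adjusted p = 0.968, edgeR). Of 8 SMAD and SMURF genes, 7 were negative in Fst vector over GFP vector (median -0.20) under all 3 scalings, and 5 were positive and 3 negative in KO over WT (median 0.01), or 4 and 4 with library totals. Smad1, a direct BMP transducer, had a log2 change of -0.08 ± 0.18 under the vector and of -0.14 ± 0.10 in KO (adjusted p = 0.921 and 0.934, edgeR).

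Among the other secreted modulators, Fstl1, which encodes a follistatin-like BMP antagonist, had 21.1, 21.8 and 22.0 CPM in Fst vector M1, M2 and F, against 23.6, 36.4 and 35.1 CPM in GFP vector M1, M2 and F (log2 change -0.59 ± 0.18; adjusted p = 0.346, edgeR). It was lower in all 3 Fst vector libraries than in every GFP vector library, as 6.01% of all genes tested were. In KO over WT its log2 change was 0.21 ± 0.10 (adjusted p = 0.844, edgeR). Of 13 such genes 11 were tested, with 6 positive and 5 negative under the vector and 7 positive and 4 negative in KO. Bmp1, despite its name, is the gene of a tolloid protease that cleaves chordin. It had 355, 352 and 410 CPM in the Fst vector group, against 244, 303 and 293 CPM in the GFP vector group. The groups did not overlap, and 10.5% of all genes tested were higher in this way. The log2 change of Bmp1 was 0.38 ± 0.13 under the vector (adjusted p = 0.423, edgeR) and -0.01 ± 0.06 in KO over WT. Gdf10, the only tested gene of 9 other ligands, had 20.9, 22.7 and 17.8 CPM in the Fst vector group, against 18.7, 10.8 and 9.83 CPM in the GFP vector group, overlapping through Fst vector F (0.61 ± 0.25; adjusted p = 0.505, edgeR), and -0.12 ± 0.10 in KO over WT.

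Receptors gave no call. Acvr1, a type I receptor used by Bmp6 and Bmp7, had 38.7, 34.6 and 51.4 CPM in Fst vector M1, M2 and F, against 48.0, 67.6 and 126 CPM in GFP vector M1, M2 and F. Its log2 change of -0.99 ± 0.36 (adjusted p = 0.450, edgeR) was -0.51 without GFP vector F, the library of highest Gfap. Acvrl1, a type I receptor best known in endothelium, had a log2 change of -0.27 ± 0.20 in KO over WT (adjusted p = 0.934, edgeR). Among co-receptors, Rgma, a membrane-anchored BMP co-receptor, had 23.4, 23.1 and 27.1 CPM in KO, against 33.8, 25.1 and 28.1 CPM in WT (-0.22 ± 0.11; adjusted p = 0.837, edgeR), and Neo1, which encodes the RGM receptor neogenin, -0.19 ± 0.12 under the vector (adjusted p = 0.706, edgeR).

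**Figure D5:**
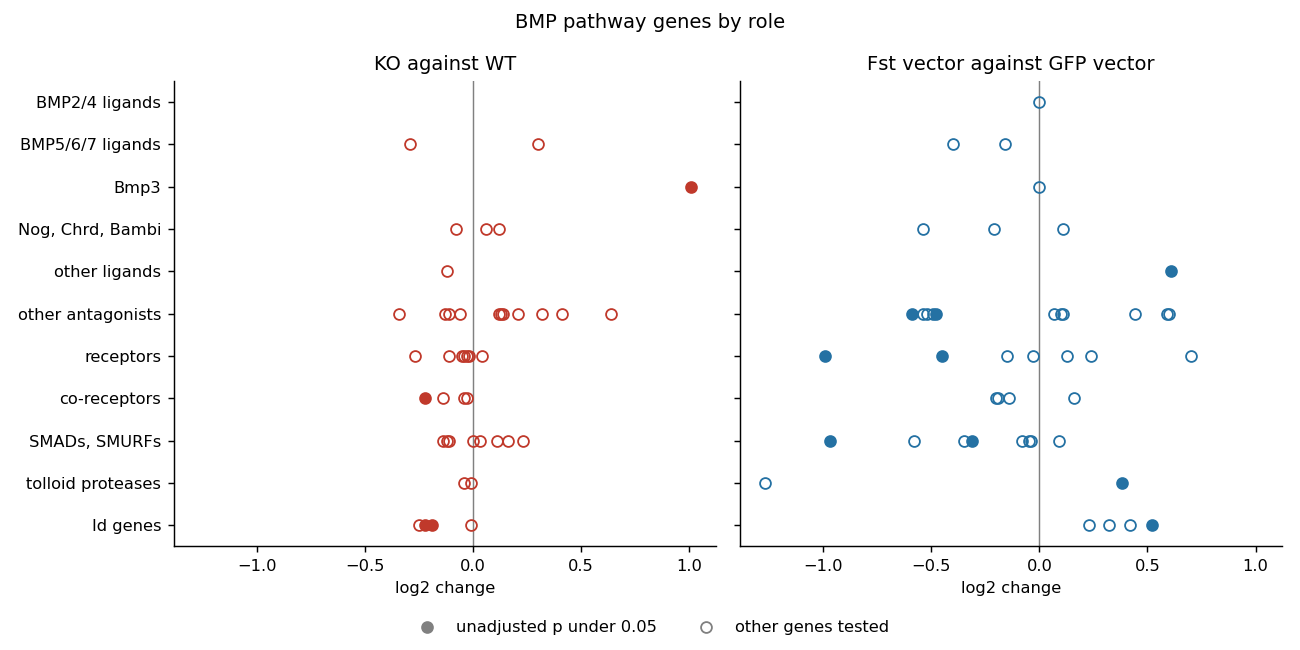
Log2 change of each tested pathway gene by role, for KO over WT (left) and for Fst vector over GFP vector (right), with 1 point per gene, filled where the unadjusted p is under 0.05. All 4 Id genes lie above 0 in the vector comparison and below 0 in KO over WT, and none of the genes drawn passed the adjusted threshold in edgeR.

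Reads of overlapping genes limit some of the members, since the sources used here do not say whether counting used strand. Bmp6 shares 224 exon bases (5.74% of its exon length) with Txndc5 on the opposite strand, which had 5246 counts over the 12 libraries, against 766 for Bmp6. Chrd shares 239 exon bases (3.82%) with Thpo, also on the opposite strand, which had 2330 counts, against 15299 for Chrd. Bmp5 shares 1878 (46.7%) with Gm26903 and Bmp4 shares 89 (3.96%) with Gm15217, both on the opposite strand. Gm26903 had 0 counts, against 35 for Bmp5, and Gm15217 had 6, against 160 for Bmp4. Whether reads on shared bases were left out of the counts is not given either. The effect on the place of Bmp5 below Bmp2 was not tested.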

How the data were processed

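Total RNA of mouse dentate gyrus was measured by RNA sequencing in 12 libraries, 3 in each of 4 groups taken from the descriptions. Per the file headers, the deposited values are raw counts of reads by Ensembl gene ID; KO and WT share a table and the vector groups another. Reads were placed on GRCm38, per the submitters' processing notes; aligner, counter, annotation and strand: not given in the sources used here. Lines naming no gene (12 and 6) carried 0 counts and were left out. CPM use library totals. Symbols, coordinates and exon lengths came from GENCODE M21 (52489 IDs matched), and promoters from RefSeq GRCm38.p6, which gave usable ones for 4 of the 9 genes.

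Each comparison was fitted on its own 6 libraries, all genes included, with edgeR 4.0.16 in R 4.3.3: TMM scaling, filterByExpr, the robust quasi-likelihood test, and Benjamini-Hochberg adjusted p-values called at 0.05. The SE is the unshrunken coefficient over the root of F. The scripts were tested on simulated data. Alternatives were library totals, DESeq2 1.42.0, all genes with at least 1 count, a replicate block, sex by title, ribosomal RNA share, spread over 12 libraries, and leaving out each library. Replicates differed by a chi-square per degree of freedom of 2.49 to 34.7, so none was counted as a repeat. The exact intervals of summed-count ratios and the floor of 3 counts cover counting error only. The edgeR intervals of log2 changes also include the estimated library-to-library spread.

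Deviations of same-named vector libraries from their group means correlated at 0.325 (M1), 0.137 (M2) and 0.389 (F), all over 0.1. Fst vector M2 with GFP vector M1 reached 0.12 too, and no label states a pairing. The main fits therefore treat libraries as unpaired, and the replicate block is given as an alternative only.

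Members, lists and tests were chosen with earlier results of these data known. Named pathway genes are those called and, per role and comparison, the one with the smallest p; genes of highest likeness are the 3 with the highest r for members with a mean of at least 1 CPM. One gene of highest likeness to Bmp3 and the summed markers of mature oligodendrocytes are not reported here.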

Additional observations from a re-analysis of the deposited data

How the results depend on the processing

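None of the 9 genes was called under any alternative; the lowest adjusted p over alternatives was 0.578 in KO against WT, 0.297 in the vector comparison and 0.224 for the difference of the effects. The number of genes called in KO against WT, 4, was 46 with all genes of at least 1 count, 30 with sex as a term, 23 with a replicate block, 1 with the spread over 12 libraries and 2 to 17 when 1 library was left out. The 12 of the vector comparison became 239 with DESeq2, 230 with all genes of at least 1 count, 141 with a replicate block, 132 with sex as a term, 7 with ribosomal RNA share as a term, 412 with the spread over 12 libraries and 1 to 29 with 1 library left out. The 44 of the difference became 210 with all genes of at least 1 count and 13 to 183 with 1 library left out. The cause was not tested. The block changed no call of a named gene. KO and WT libraries of the same name correlated at 0.0606 (M1), 0.13 (F1) and -0.0807 (M2) in their deviations. F1 was thus over 0.1 and M1 and M2 were not, while KO M1 correlated best with WT M2 (0.178). No label pairs these libraries either.

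Log2 changes close to 0 turned sign. In the vector comparison Bmp4 was -0.15 with ribosomal RNA share as a term and -0.01 with the spread over 12 libraries, and Bmp3 -0.05 and -0.01, and 0.00 with sex as a term. With 1 library left out, Nog ran from -0.24 to 0.03 and Chrd from -0.02 to 0.12 in KO against WT, as did Bmp1 from -0.05 to 0.06, Acvr1 from -0.01 to 0.12, Neo1 from -0.08 to 0.01 and Smad7 from -0.01 to 0.30. In the vector comparison Bmp4 ran from -0.21 to 0.44, Bmp3 from -0.24 to 0.44, Bmp7 from -0.42 to 0.08, Chrd from -0.11 to 0.34, Acvrl1 from -0.10 to 0.54, Rgma from -0.00 to 0.35 and Smad1 from -0.21 to 0.07. For the difference, Bmp4 ran from -0.62 to 0.37, Bmp7 from -0.14 to 0.36 and Chrd from -0.18 to 0.27. Smad7 in the vector comparison also passed with all genes of at least 1 count (adjusted p = 0.0081) and with the spread over 12 libraries (0.0247), as did Fstl1 with the latter (0.0457). Depth limits Bmp2 and Bmp5 most.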
